A study of Mus musculus with 60 samples.

Results

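GFP-high crypt cells of the distal small intestine were compared with GFP-high crypt cells of the proximal small intestine in 4 libraries of each, 8 of the 60 libraries of the series. The 8 libraries were chosen by their labelled gut part and GFP fraction, with no measured value involved. All came from 8-week-old mice carrying Lgr5-2A-eGFP, an allele that makes eGFP along with Lgr5, and no treatment or other allele is named for any group. The small intestine was taken as distal, middle and proximal parts of equal length. Epithelial cells were released with a chelating buffer and TrypLE, at least 50000 were sorted per GFP fraction of a small intestinal part, and polyA RNA was sequenced. Further groups of 4 libraries each from the same mouse line served as a setting: GFP-high cells of the middle small intestine, GFP-negative cells of the distal and proximal small intestine, and GFP-high cells of the distal and proximal colon. Strain, sex and any pooling of animals are not given in the sources used here, so the p-values measure the spread between libraries. Unless another fit is named, that spread was estimated over all 60 libraries of the series, not over the 8 compared alone. The standard errors rest on the same fit.

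Lgr5 marks the crypt base columnar cells, the dividing stem cells of the intestinal crypt, which sit between Paneth cells that make antimicrobial peptides. In the mouse the proximal epithelium absorbs most fat, folate, iron and calcium, while the distal epithelium, the ileum, takes up bile acids and meets many more bacteria. Transcription factors such as GATA4 and the HOX proteins set these positions along the gut, and part of the difference is held in the stem cells themselves.

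The 8 libraries held between 58485489 and 88271801 counts and between 18419 and 22420 detected genes, with the fewest genes in distal library 1. Lgr5 averaged 544 ± 48.7 CPM, counts scaled to library size, in the distal GFP-high libraries (SD, n = 4), against 3.08 ± 1.09 CPM in the distal GFP-negative ones. In the proximal part it averaged 313 ± 61.4 CPM in GFP-high and 2.67 ± 0.675 CPM in GFP-negative libraries. The libraries numbered 1 in the distal, middle and proximal parts had 2111, 988 and 1245 CPM of Xist and no Ddx3y count, whereas libraries 2 to 4 had at most 1.94 CPM of Xist and carried Ddx3y. Pancreatic enzyme transcripts were concentrated in 2 proximal libraries: Ctrb1, a chymotrypsinogen, had 0.295, 41.3, 16.8 and 0.0892 CPM in proximal libraries 1 to 4. Of 28 leukocyte genes tested, 4 fell in the distal part, Cd8a, a T cell coreceptor, among them, and 0 rose (2 fell without distal library 1). Their median log2 ratio of distal to proximal cells was -1.35. The summed level was 20.9 to 36.95 CPM in distal and 24.9 to 51.2 CPM in proximal libraries. Ptprc, the leukocyte antigen CD45, went against that median and had 33.2, 10.6, 13.2 and 5.65 CPM in distal libraries 1 to 4. Its log2 ratio was 1.29, not called, and 0.62 without distal library 1. These are bulk samples, in which more cells of a type and more RNA per cell cannot be told apart.

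**Figure D1:**
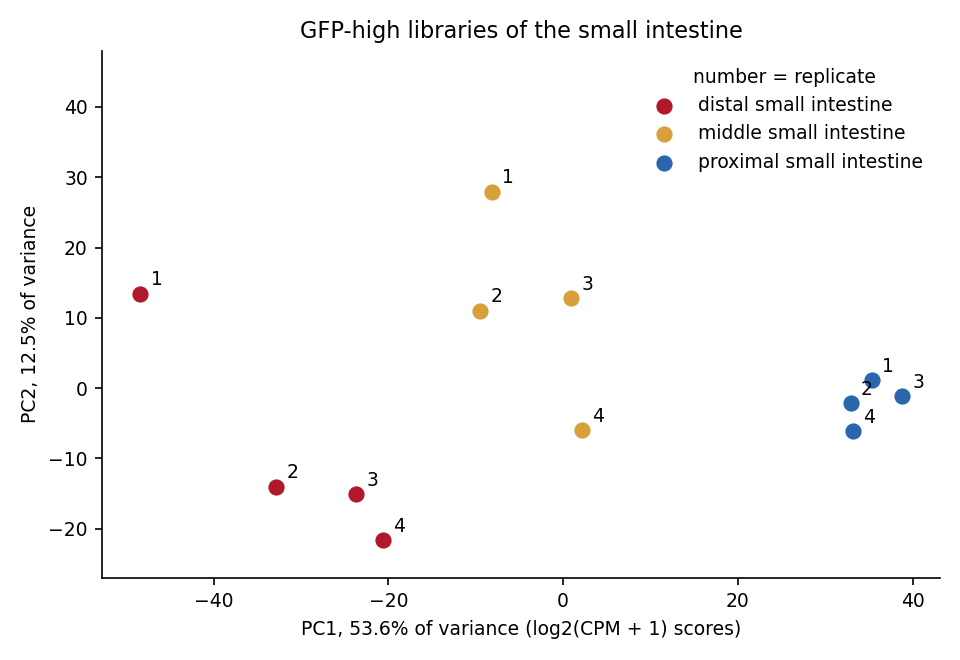
Principal components of the GFP-high libraries of the small intestine on log2(CPM + 1) values of 12805 genes; each point is a library, numbered by replicate, and both axes give component scores with their share of the variance. The distal, middle and proximal libraries form 3 separate sets along the first component, and distal library 1 stands apart from distal libraries 2 to 4.

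Of 23360 genes tested with edgeR's quasi-likelihood test, 2759 (11.8%) were called at an adjusted p below 0.05, 1493 higher (6.39%) and 1266 lower (5.42%) in the distal cells. A change of at least 2-fold was called for 1372 genes (5.87%), 747 of them higher. Called or not, every distal library lay above every proximal one for 2915 genes (12.5%) and below for 3072 (13.2%). Groups without overlap were therefore common among all genes tested. Differences below are log2 ratios of distal to proximal cells with standard errors, and the median over all genes tested was 0. The mean of the middle part was intermediate for 2515 of the 2759 called genes (91.2%), against 47.9% of all genes tested. Genes called for a wide gap hold another mean within it more often, so these shares are not like for like. Each step alone gave fewer calls, 464 for middle against proximal and 451 for distal against middle cells. Without distal library 1 the number called was 1599, of which 1565 were shared, and without proximal libraries 2 and 3, those with pancreatic transcripts, it was 1203. A fit of the 8 libraries alone called 4996 genes, so genes not called in the fit of all libraries can pass there.

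The transcription factors with a known regional role changed in both directions. Of 29 tested, 5 rose and 5 fell in the distal cells (3 rose without distal library 1, and 2 without proximal libraries 2 and 3). GATA4, a zinc finger factor that maintains jejunal identity in the mouse, is encoded on chr14:63198914-63271712 (GRCm38). Gata4 had 8.16, 23.6, 25.5 and 36.98 CPM in distal libraries 1 to 4, against 206, 224, 195 and 196 CPM in proximal libraries 1 to 4 (log2 difference -3.12 ± 0.43, adjusted p = 3.4e-07). The groups did not overlap, and the middle libraries, with 89.8, 119, 99.8 and 128 CPM, lay between them. Onecut2, which encodes a cut homeodomain factor, had 3.00, 1.36, 1.88 and 2.29 CPM in distal and 189, 167, 179 and 200 CPM in proximal libraries (log2 difference -6.43 ± 0.61, adjusted p = 1.52e-11). It too was intermediate in the middle part, at 60.4 ± 12.8 CPM (SD, n = 4). Pdx1, a homeodomain factor of duodenum and pancreas, followed another course: it had at most 0.1005 CPM in any distal library and 28.0, 20.2, 24.0 and 19.2 CPM in the proximal ones, and the middle libraries held no more than 0.219 CPM (log2 difference -8.79 ± 0.74, adjusted p = 6.9e-13). The same step between middle and proximal cells was seen for Meis2, a TALE homeodomain factor, with 0.0624 ± 0.0616 CPM in distal, 0.245 ± 0.221 CPM in middle and 5.45 ± 1.01 CPM in proximal cells (log2 difference -6.42 ± 0.96, adjusted p = 2.54e-06; -7.07 without distal library 4). Creb3l3, a membrane-bound factor that acts on lipid genes, fell (log2 difference -2.16 ± 0.53, adjusted p = 0.00366), a call lost without proximal libraries 2 and 3 (adjusted p = 0.0762).

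Among the factors that rose, Osr2, an odd-skipped zinc finger gene, averaged 75.7 ± 8.86 CPM in distal and 18.6 ± 2.13 CPM in proximal cells (log2 difference 2.02 ± 0.47), but its adjusted p of 0.00183 became 0.0539 with the DESeq2 Wald test. Foxa1, a pioneer factor of secretory lineages, rose by 1.01 ± 0.17 on the log2 scale (adjusted p = 1.04e-05). Cdx2, the homeodomain factor that all intestinal epithelium needs, was not called, at 186 ± 43.5 CPM in distal and 246 ± 31.2 CPM in proximal cells (log2 difference -0.41 ± 0.28, adjusted p = 0.376).

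GATA4 acts through GATA sites. As examples, the 250 bases before the start of 3 absorptive genes are shown, from RefSeq on GRCm38.p6. These 3 genes were picked by hand and do not stand for the called genes, whose shares are given below. Matches to AGATAA on either strand (TTATCT on the other) are in capitals. Lct encodes lactase and Rbp2 a cellular retinol-binding protein, both lower in the distal cells, and Fabp6 encodes the ileal bile acid-binding protein, which is higher there. The windows are chr1:128328319-128328568 on the minus strand for Lct, chr9:98490287-98490536 on the plus strand for Rbp2 and chr11:43601563-43601812 on the minus strand for Fabp6.
Lct: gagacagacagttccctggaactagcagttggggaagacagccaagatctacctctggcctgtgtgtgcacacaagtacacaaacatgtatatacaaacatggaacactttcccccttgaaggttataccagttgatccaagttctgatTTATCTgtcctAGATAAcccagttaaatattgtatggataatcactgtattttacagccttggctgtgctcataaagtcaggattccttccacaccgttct
Rbp2: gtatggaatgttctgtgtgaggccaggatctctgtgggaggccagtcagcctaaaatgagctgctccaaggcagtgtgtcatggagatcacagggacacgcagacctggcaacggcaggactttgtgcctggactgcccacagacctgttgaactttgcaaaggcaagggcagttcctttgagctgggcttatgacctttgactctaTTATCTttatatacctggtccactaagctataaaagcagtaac
Fabp6: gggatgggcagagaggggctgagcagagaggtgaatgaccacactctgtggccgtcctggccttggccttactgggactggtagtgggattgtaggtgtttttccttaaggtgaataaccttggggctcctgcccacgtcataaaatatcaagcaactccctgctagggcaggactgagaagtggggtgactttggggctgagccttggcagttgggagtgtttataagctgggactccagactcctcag
Lct had 2 matches in its window and Rbp2 had 1, while these letters do not occur in the Fabp6 window. The bases just after the window were found in an annotated transcript of the gene for Lct and Rbp2. For Fabp6 they were not, so the place of its window is less certain. The motif was found in 9.99% of all 32851 RefSeq promoter windows of this length and in 8.29% of the 14208 tested genes with a window. Among called genes that changed at least 2-fold it was found in 11% of the 508 higher and 12.3% of the 448 lower genes with a window, and among all called genes in 9.95% of the 1065 higher and 8.88% of the 968 lower ones. The letters CATAAA on either strand, read by CDX factors, were found in 10% of the higher and 9.38% of the lower genes past 2-fold, in 8.45% of all higher and 7.44% of all lower genes called, and in 8.5% of the tested genes. A match describes the letters and does not show binding, and a role of GATA4 in these differences was not tested.

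In the HoxB cluster, Hoxb5 to Hoxb9 separated the distal cells from both other parts, and its other Hox genes are not reported here. Of 30 Hox genes tested, 10 rose and 4 fell in the distal cells, against 6.39% and 5.42% of all genes tested. Without proximal libraries 2 and 3, 7 rose. Hox genes encode homeodomain factors that pattern the body axis. Hoxb9 (chr11:96271330-96276595) had 40.9, 26.1, 35.2 and 18.1 CPM in distal libraries 1 to 4 and no count in any proximal library, at least 673-fold higher against a floor of 3 counts per library. Hoxb8 had 28.7, 19.9, 23.6 and 13.2 CPM in distal libraries, against 0, 0, 0 and 0.0892 CPM in proximal ones. Hoxb7, Hoxb6 and Hoxb5, its neighbours, averaged 10.1 ± 3.72, 15.6 ± 3.98 and 6.84 ± 3.12 CPM in distal and 0.152 ± 0.1004, 0.407 ± 0.326 and 0.0462 ± 0.0348 CPM in proximal cells. Every distal library exceeded every proximal one for each of these 5 genes, and no middle library reached 1 CPM of any of them. The adjusted p was between 8.44e-20 and 1.01e-07. Gm53, an annotated long noncoding gene between Hoxb13 and Hoxb9 at chr11:96251660-96264484, had 28.5, 18.0, 27.9 and 17.8 CPM in distal libraries and no count in the proximal ones (at least 516-fold higher, adjusted p = 7.28e-15). Whether the reads were counted by strand is not given in the sources used here, so overlapping transcripts cannot be told apart. The fitted log2 difference depended on single libraries where proximal counts were few: for Hoxb8 it was 9.81, and 13.75 without proximal library 4, and for Hoxb5 it was 7.20, and 7.82 without proximal library 1. Without proximal libraries 2 and 3 it was 5.43 in place of 6.06 for Hoxb7 and 4.50 in place of 5.27 for Hoxb6.

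HoxA genes at the 5′ side of their cluster ran the other way, at low levels. Hoxa9 had no count in the distal libraries and 0.558, 0.400, 0.783 and 1.26 CPM in the proximal ones (at least 20.02-fold lower, adjusted p = 3.07e-11). Hoxa10 had likewise no distal count and 0.459, 0.514, 0.504 and 0.714 CPM in proximal libraries (at least 14.6-fold lower, adjusted p = 7.24e-09). Hoxa7 had 0, 0, 0 and 0.0545 CPM in distal and 1.80, 0.800, 0.951 and 1.72 CPM in proximal libraries (log2 difference -6.55 ± 0.95, adjusted p = 1.4e-06; -9.72 without distal library 4). Distal and proximal libraries did not overlap for any of these 3 genes. The middle libraries held at most 0.0567 CPM of each, so that here the step lay between middle and proximal cells.

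**Figure D2:**
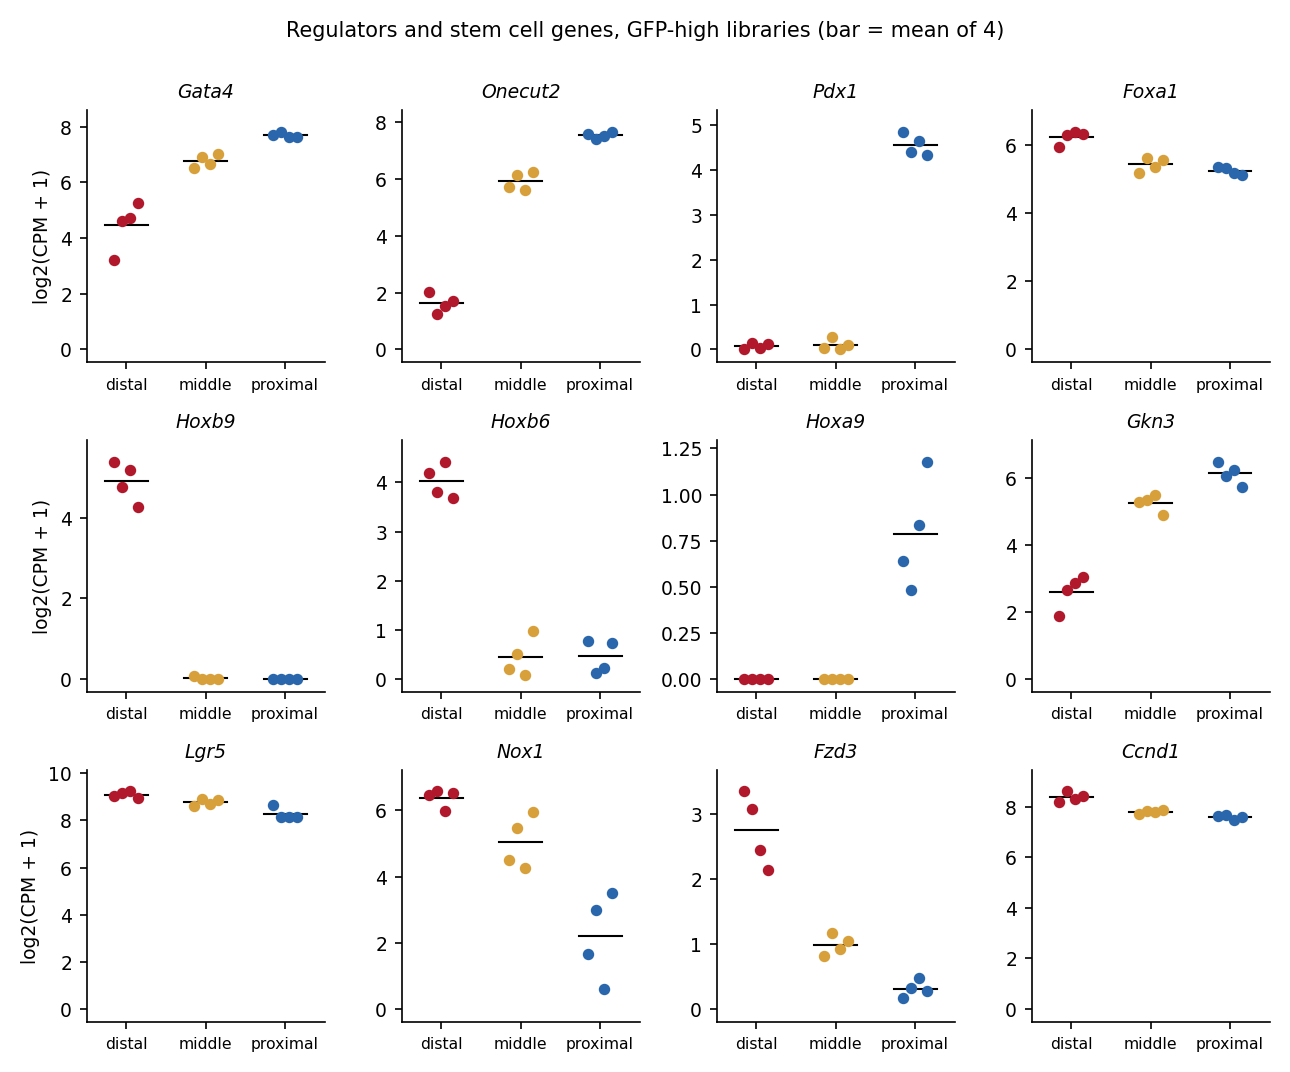
Levels of regional regulators and stem cell genes as log2(CPM + 1) in each GFP-high library of the distal, middle and proximal small intestine, from left to right, with a bar at the mean of 4 libraries. Gata4, Onecut2, Gkn3 and Nox1 have intermediate middle values, Hoxb9 and Hoxb6 are high in distal libraries only of the 3 parts, and Pdx1 is high in proximal libraries only. Hoxa9 is low throughout and highest in proximal libraries. Each panel has its own scale.

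Lgr5 itself was higher in the distal cells. It had 516, 570.5, 598 and 492 CPM in distal and 405, 283, 280.2 and 282 CPM in proximal libraries (log2 difference 0.80 ± 0.26, adjusted p = 0.0381), with no overlap and with proximal library 1 nearest to the distal ones. This call was lost when any one of distal libraries 1 to 3 or proximal libraries 2 to 4 was left out (adjusted p between 0.0691 and 0.101). Both groups were sorted on the Lgr5 reporter, so the gate bears on this gene directly. Most other stem cell genes were not called, like most genes tested. Where 6.39% of all genes rose and 5.42% fell, 3 of 31 crypt base stem cell genes tested rose, 2 fell and 26 were uncalled. Without distal library 1, without proximal library 3, without proximal libraries 2 and 3 or without the libraries numbered 1, 1 rose. A fit of the 8 libraries alone called 5 higher and 5 lower. Olfm4, a secreted glycoprotein and abundant stem cell marker, averaged 13220.0 ± 320.4 CPM in distal and 10345 ± 559.6 CPM in proximal cells (log2 difference 0.35 ± 0.71, adjusted p = 0.827), with an adjusted p of 0.00111 in a fit of the 8 libraries alone. Ascl2, the basic helix-loop-helix factor of these cells, had a log2 difference of -0.11 ± 0.32 (adjusted p = 0.9), which was 0.048 without proximal library 1 and 0.10 without the libraries numbered 1. Smoc2, a matricellular protein gene, differed by 0.10 ± 0.13 (adjusted p = 0.708).

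Apart from Lgr5, the members that changed are less used as markers. Gkn3, a gastrokine gene with expression reported in mouse crypt base cells, had 2.68, 5.30, 6.26 and 7.34 CPM in distal and 88.6, 66.2, 75.1 and 52.1 CPM in proximal libraries (log2 difference -3.71 ± 0.59, adjusted p = 9e-06). Fstl1, a secreted follistatin-like protein gene, had 0.770, 1.38, 1.37 and 1.69 CPM in distal and 38.3, 32.1, 31.5 and 29.9 CPM in proximal libraries (log2 difference -4.66 ± 0.83, adjusted p = 5.08e-05). Tnfrsf19, a TNF receptor family member that responds to Wnt, rose, with 54.7, 64.5, 63.9 and 60.2 CPM in distal and 30.9, 25.8, 22.7 and 18.5 CPM in proximal libraries (log2 difference 1.31 ± 0.25, adjusted p = 0.000153). For all 3 genes the groups did not overlap. The middle cells were near the distal level for Tnfrsf19, at 60.3 ± 8.53 CPM, and between the others for Gkn3, at 37.6 ± 6.42 CPM (SD, n = 4). Bmi1, a Polycomb gene, rose by 0.44 ± 0.13 on the log2 scale (adjusted p = 0.0179), a call lost without distal library 1 (0.0659) or proximal library 3 (0.0574).

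Among 29 Wnt pathway genes, 4 rose and 1 fell (2 fell without distal library 4, and 2 rose without proximal libraries 2 and 3). A fit of the 8 libraries alone called 8 of them higher and 5 lower. Fzd3, a Wnt receptor, had 9.21, 7.44, 4.46 and 3.43 CPM in distal and 0.131, 0.257, 0.392 and 0.208 CPM in proximal libraries (log2 difference 4.62 ± 0.38, adjusted p = 1.82e-13). Ccnd1, the cyclin that drives entry into the cell cycle, had 286, 387, 314 and 340.2 CPM in distal and 199.5, 204, 178 and 192 CPM in proximal libraries (log2 difference 0.78 ± 0.14, adjusted p = 4.92e-05). Wnt3, the ligand made by Paneth cells in mouse crypts, averaged 23.1 ± 2.94 CPM in distal and 7.36 ± 0.990 CPM in proximal cells (log2 difference 1.65 ± 0.43, adjusted p = 0.00741), a call lost without the libraries numbered 1 (0.0637) or without proximal libraries 2 and 3 (0.0542). Sfrp5, a secreted Wnt inhibitor, fell, with 12.6, 36.6, 40.6 and 52.7 CPM in distal and 188, 127, 117 and 152 CPM in proximal libraries (log2 difference -2.04 ± 0.43, adjusted p = 0.000562). Axin2, a common readout of Wnt signalling, was not called (log2 difference -0.14 ± 0.24, adjusted p = 0.779). Of 14 BMP pathway genes 1 rose, a call lost without proximal library 1, and 2 fell (1 without distal library 1 or 2), against 4 higher and 4 lower in a fit of the 8 libraries alone. Smad6, which inhibits BMP signalling, fell, with 3.36, 3.09, 4.02 and 4.30 CPM in distal and 8.74, 8.94, 7.33 and 8.59 CPM in proximal libraries (log2 difference -1.19 ± 0.25, adjusted p = 0.000526). Of 14 Notch pathway genes 1 rose, Atoh1, the factor that commits crypt cells to secretory fates, at 38.3 ± 1.60 CPM in distal and 14.9 ± 3.19 CPM in proximal cells (log2 difference 1.36 ± 0.23, adjusted p = 2.72e-05). For BMP and Notch genes, 1 riser of 14 is near the 6.39% of all genes tested that were called higher.

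Proliferation genes were not called in the fit of all libraries, though mitosis genes leaned higher in the distal cells. Of 20 DNA replication genes, edgeR called 0, with 1 lower at an unadjusted p below 0.05, and DESeq2 called 0, while a fit of the 8 libraries alone called 4 higher and 2 lower. Of 20 mitosis genes edgeR called 0, with 6 higher at an unadjusted p below 0.05. Every distal library lay above every proximal one for 10 of these 20 and below for 0, against 12.5% and 13.2% of all genes. Their summed level was 4137.8 to 4605.1 CPM in distal and 3075.2 to 3766.5 CPM in proximal libraries. For the DNA replication genes, 5 lay fully above and 3 fully below. With the replicate number as a block 2 mitosis genes were called, and DESeq2 called 1. Nusap1, a spindle protein gene, had 199, 167, 177 and 139.8 CPM in distal and 91.8, 99.3, 110.0 and 110.4 CPM in proximal libraries without overlap (log2 difference 0.73 ± 0.26). Its adjusted p was 0.0519, and 0.0251 with the replicate block. Fitted on the 8 libraries alone, 12 of the 20 mitosis genes were called higher in the distal cells.

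**Figure D3:**
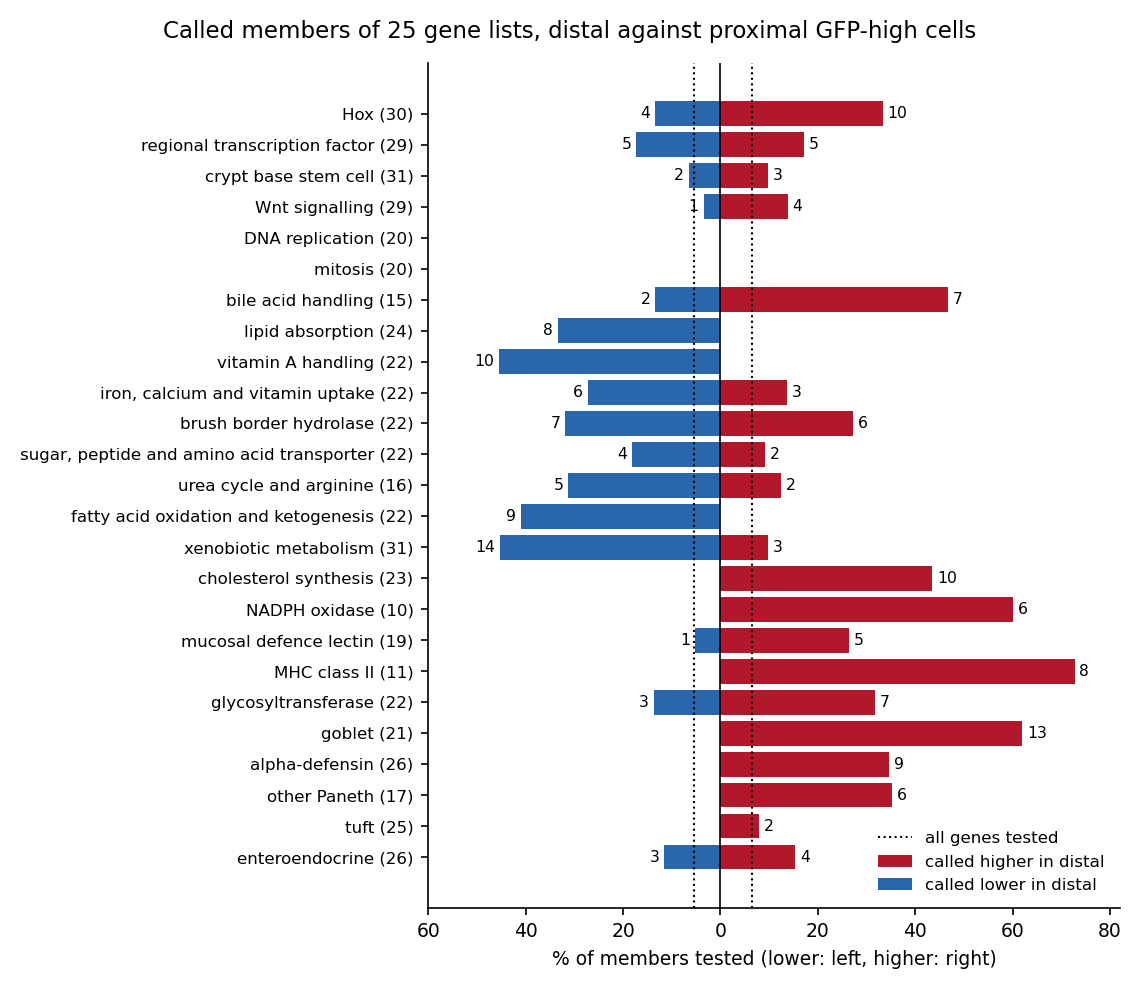
Share of the tested members of each gene list called higher (right) or lower (left) in distal than in proximal GFP-high cells, in % of members tested; numbers in brackets are members tested, numbers beside bars are members called, and dotted lines mark all genes tested, 6.39% higher and 5.42% lower. Lists of fat, vitamin A and fatty acid oxidation genes have called members on the lower side only, and those of goblet, MHC class II and NADPH oxidase genes on the higher side only.

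Over the tested members, called or not, the median log2 difference was 1.91 for MHC class II, 1.19 for bile acid handling, 0.83 for goblet, 0.77 for NADPH oxidase and 0.20 for cholesterol synthesis genes. It was -0.92 for xenobiotic metabolism, -0.79 for vitamin A handling, -0.52 for fat absorption and -0.50 for fatty acid oxidation genes, while for crypt base stem cell genes it was 0.08 and for mitosis genes 0.35, against 0 over all genes tested.

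Of 15 tested genes that take up, carry or sense bile acids, 7 rose in the distal cells, 2 fell and 6 did not pass (1 fell without distal library 2, 3 or 4 or proximal library 1 or 3, and 4 in a fit of the 8 libraries alone). Fabp6, the cytosolic bile acid carrier of the ileum, had 112, 30.1, 59.5 and 84.9 CPM in distal and 0.197, 0.685, 0.280 and 0.520 CPM in proximal libraries (log2 difference 7.40 ± 0.90, adjusted p = 1.74e-08). Slc10a2, the apical sodium-dependent bile acid transporter, had 36.3, 12.0, 16.2 and 20.6 CPM in distal and 0.131, 0.400, 0.560 and 0.327 CPM in proximal libraries (log2 difference 5.88 ± 0.73, adjusted p = 2.34e-08). Both genes separated the groups fully, and the middle libraries, at 0.545 ± 0.419 CPM of Fabp6 and 0.722 ± 0.415 CPM of Slc10a2, were at the proximal level. The log2 difference of Slc10a2 was 5.21 without the libraries numbered 1 and 6.52 without proximal libraries 2 and 3. Nr1h4, the bile acid receptor FXR, averaged 40.4 ± 7.93 CPM in distal and 17.7 ± 3.06 CPM in proximal cells (log2 difference 1.19 ± 0.18, adjusted p = 1.85e-06). Fgf15, the hormone that FXR induces in the ileum, had 4.401, 0.816, 1.59 and 1.42 CPM in distal libraries and no count in proximal ones, at least 46.03-fold higher (adjusted p = 2.62e-06). Abcc4, an export pump, rose by 1.98 ± 0.22 (adjusted p = 1.9e-09), and Cyp3a11, a cytochrome P450 that hydroxylates bile acids and drugs, fell by 2.97 on the log2 scale (SE 0.56, adjusted p = 0.00014).

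Genes of dietary fat absorption fell or did not pass. Of 24 tested, 8 fell in the distal cells. Fabp1, a fatty acid-binding protein, had 15.8, 2.78, 11.7 and 5.46 CPM in distal and 131, 128, 347 and 182 CPM in proximal libraries (log2 difference -4.46 ± 0.59, adjusted p = 1.49e-07; -5.06 without the libraries numbered 1). Apoa4, an apolipoprotein of chylomicrons, had 10.01, 5.71, 27.9 and 26.9 CPM in distal and 75.7, 92.1, 263 and 176 CPM in proximal libraries (log2 difference -3.11 ± 0.59, adjusted p = 0.000125). In the middle part Apoa4 was as high as in the proximal part, at 178 ± 43.8 CPM, whereas Fabp1 was intermediate, at 63.9 ± 16.7 CPM. Mttp, which loads lipid onto apolipoprotein B, averaged 137 ± 34.5 CPM in distal and 367 ± 101 CPM in proximal cells (log2 difference -1.42 ± 0.25, adjusted p = 2.91e-05). The triglyceride-forming enzymes Dgat1 and Dgat2 fell by 1.19 and 1.46 on the log2 scale, the fatty acid receptor Cd36 by 3.07 and the lipoprotein receptor Scarb1 by 2.23 (adjusted p between 1.59e-07 and 0.000376). These genes are made chiefly by differentiated enterocytes: Fabp1 averaged 63.4 ± 38.0 CPM in distal and 2851 ± 1091 CPM in proximal GFP-negative cells. Fabp2, an enterocyte marker of both parts, had 137, 118, 277 and 267 CPM in distal and 186, 211, 341 and 266 CPM in proximal GFP-high libraries (log2 difference -0.33 ± 0.28, adjusted p = 0.495). The part played by maturing cells within the GFP-high gate was not tested.

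Vitamin A handling showed the same direction, with 10 of 22 genes tested falling. Rbp2 had 7.11, 5.73, 20.2 and 17.9 CPM in distal and 97.7, 142, 318 and 201 CPM in proximal libraries (log2 difference -3.90 ± 0.61, adjusted p = 4.4e-06). Adh1, an alcohol dehydrogenase that oxidises retinol, had 39.97, 28.6, 42.4 and 17.2 CPM in distal and 174, 158, 178 and 164 CPM in proximal libraries (log2 difference -2.39 ± 0.24, adjusted p = 8.62e-11). Distal and proximal libraries were fully separate for both, and the middle cells were near the distal level for Adh1, at 40.2 ± 9.24 CPM. Lrat, which stores retinol as ester, the retinaldehyde reductase Dhrs3, the retinoic acid-forming Aldh1a1 and the retinol dehydrogenase Rdh16 fell by 0.81, 0.92, 1.33 and 2.90 on the log2 scale, with adjusted p between 1.32e-09 and 0.00464.

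Mineral and vitamin uptake genes were divided, with 3 of 22 rising and 6 falling (1 rose without distal library 1 or without proximal libraries 2 and 3, and 5 in a fit of the 8 libraries alone). S100g, the cytosolic calcium carrier calbindin-D9k, had 1.39, 1.39, 0.993 and 1.47 CPM in distal and 18.9, 20.8, 38.6 and 38.8 CPM in proximal libraries (log2 difference -4.48 ± 0.57, adjusted p = 4.98e-08). Slc46a1, the folate carrier, had 5.34, 4.13, 3.84 and 6.62 CPM in distal and 22.4, 12.6, 35.0 and 25.2 CPM in proximal libraries (log2 difference -2.26 ± 0.31, adjusted p = 3.72e-07). Neither gene overlapped between the groups, and S100g in the middle part, at 1.77 ± 0.486 CPM, was close to the distal level. The manganese exporter Slc30a10 fell (log2 difference -2.66 ± 0.56, adjusted p = 0.000665), as did Fth1, the heavy chain of ferritin (log2 difference -0.74 ± 0.15, adjusted p = 0.000562). Slc34a2, the intestinal phosphate carrier of the mouse ileum, rose, with 46.8, 25.8, 79.3 and 81.8 CPM in distal and 1.48, 3.97, 14.1 and 14.7 CPM in proximal libraries (log2 difference 2.77 ± 0.61, adjusted p = 0.00104).

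Brush border enzymes changed in both directions: 6 of 22 rose and 7 fell (3 rose without proximal library 1, without proximal libraries 2 and 3 or without the libraries numbered 1). Mgam, the maltase-glucoamylase that ends starch digestion, had 2191, 2602, 2459 and 1968 CPM in distal and 811, 835, 789 and 876 CPM in proximal libraries (log2 difference 1.48 ± 0.24, adjusted p = 7.62e-06). The peptidases Naaladl1 and Xpnpep2 averaged 271 ± 41.7 and 38.0 ± 9.84 CPM in distal cells and 36.2 ± 6.16 and 7.25 ± 0.732 CPM in proximal cells, with adjusted p of 3.15e-10 and 3.4e-07. On the falling side, Mme, the peptidase neprilysin, had 16.1, 12.5, 16.6 and 19.8 CPM in distal and 108, 122, 159.7 and 119.8 CPM in proximal libraries (log2 difference -2.97 ± 0.50, adjusted p = 1.52e-05). Lct had 14.7, 9.77, 53.1 and 32.7 CPM in distal and 107, 103, 215 and 174 CPM in proximal libraries (log2 difference -2.44 ± 0.55, adjusted p = 0.00131), while its middle libraries held 202, 178, 203 and 189 CPM. Trehalase (Treh) and the nucleotide pyrophosphatase Enpp3 fell by 2.29 and 2.74 on the log2 scale, and intestinal alkaline phosphatase (Alpi) by 2.27 (adjusted p between 1.61e-05 and 0.00015). Akp3, the duodenal alkaline phosphatase beside Alpi on chromosome 1, was the sharper of this pair, with 0, 0.327, 0.132 and 1.65 CPM in distal and 111, 106, 237 and 208 CPM in proximal libraries (log2 difference -8.33 ± 0.89, adjusted p = 1.69e-09; -10.06 without distal library 4). The middle libraries held at most 1.14 CPM of Akp3, and the 2 genes are close relatives whose reads may be shared. Tmprss15, enteropeptidase, the activator of trypsinogen, had 0, 0, 0 and 0.218 CPM in distal and 4.59, 5.80, 12.96 and 12.4 CPM in proximal libraries (log2 difference -7.40 ± 1.22, adjusted p = 2.99e-05; -12.49 without distal library 4).

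Of 22 sugar, peptide and amino acid transporters 2 rose and 4 fell, where 6.39% of all genes tested rose and 5.42% fell. Slc6a14 and Slc43a1, both carriers of neutral amino acids, rose by 4.86 ± 0.67 and 3.00 ± 0.34 on the log2 scale (adjusted p = 2.97e-07 and 2.35e-09). The basolateral glucose carrier Slc2a2 averaged 3.47 ± 0.512 CPM in distal and 22.5 ± 2.57 CPM in proximal cells (log2 difference -2.69 ± 0.50, adjusted p = 0.000109), and the amino acid exchanger Slc7a8 and the aromatic amino acid carrier Slc16a10 fell by 1.44 and 0.68 (adjusted p = 5.94e-05 and 0.00189). Of 16 arginine metabolism genes 2 rose (1 without distal library 2, 3 or 4 or proximal library 1, 2 or 3, and 0 without proximal libraries 2 and 3). Of the same genes 5 fell, 3 without the libraries numbered 1 and 8 in a fit of the 8 libraries alone. Arg2, mitochondrial arginase, had 4.18, 2.22, 4.82 and 5.19 CPM in distal and 35.1, 38.0, 39.5 and 37.3 CPM in proximal libraries (log2 difference -3.19 ± 0.36, adjusted p = 2.28e-09). Agmat, which splits agmatine, and Oat, ornithine aminotransferase, fell by 1.62 and 0.74 (adjusted p = 0.000327 and 0.00132).

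Fatty acid oxidation and ketone body genes fell in 9 of 22 cases. The count was 15 with the replicate block, 16 without distal library 3 and 4 without proximal libraries 2 and 3. Ppara, the nuclear receptor that induces this programme, had 7.75, 9.19, 9.02 and 6.74 CPM in distal and 24.7, 22.4, 19.9 and 22.2 CPM in proximal libraries (log2 difference -1.45 ± 0.28, adjusted p = 0.000215). Acadvl, the very long chain acyl-CoA dehydrogenase, averaged 34.6 ± 13.3 CPM in distal and 112 ± 17.9 CPM in proximal cells (log2 difference -1.70 ± 0.31, adjusted p = 6.4e-05), and Bdh1, which interconverts the ketone bodies, fell by 0.62 (adjusted p = 5.08e-05). Of 31 xenobiotic metabolism genes 14 fell and 3 rose; 9 fell without distal library 1 and 9 without distal library 2. The carboxylesterase Ces1f, the glutathione transferases Gsta1 and Gstm3 and the cytochromes P450 Cyp2b10 and Cyp2d26 fell by 2.64, 3.74, 1.41, 4.50 and 2.08 on the log2 scale (adjusted p between 2.34e-09 and 8.2e-06). Abcb1a, the drug export pump P-glycoprotein, went the other way, with 175, 166, 256 and 157 CPM in distal and 45.7, 52.4, 61.2 and 52.4 CPM in proximal libraries (log2 difference 1.83 ± 0.16, adjusted p = 3.12e-12). Gsta3, another glutathione transferase, rose by 2.83 ± 0.37 (adjusted p = 6.86e-08). Members of these families share sequence, and reads may have been split between near copies.

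**Figure D4:**
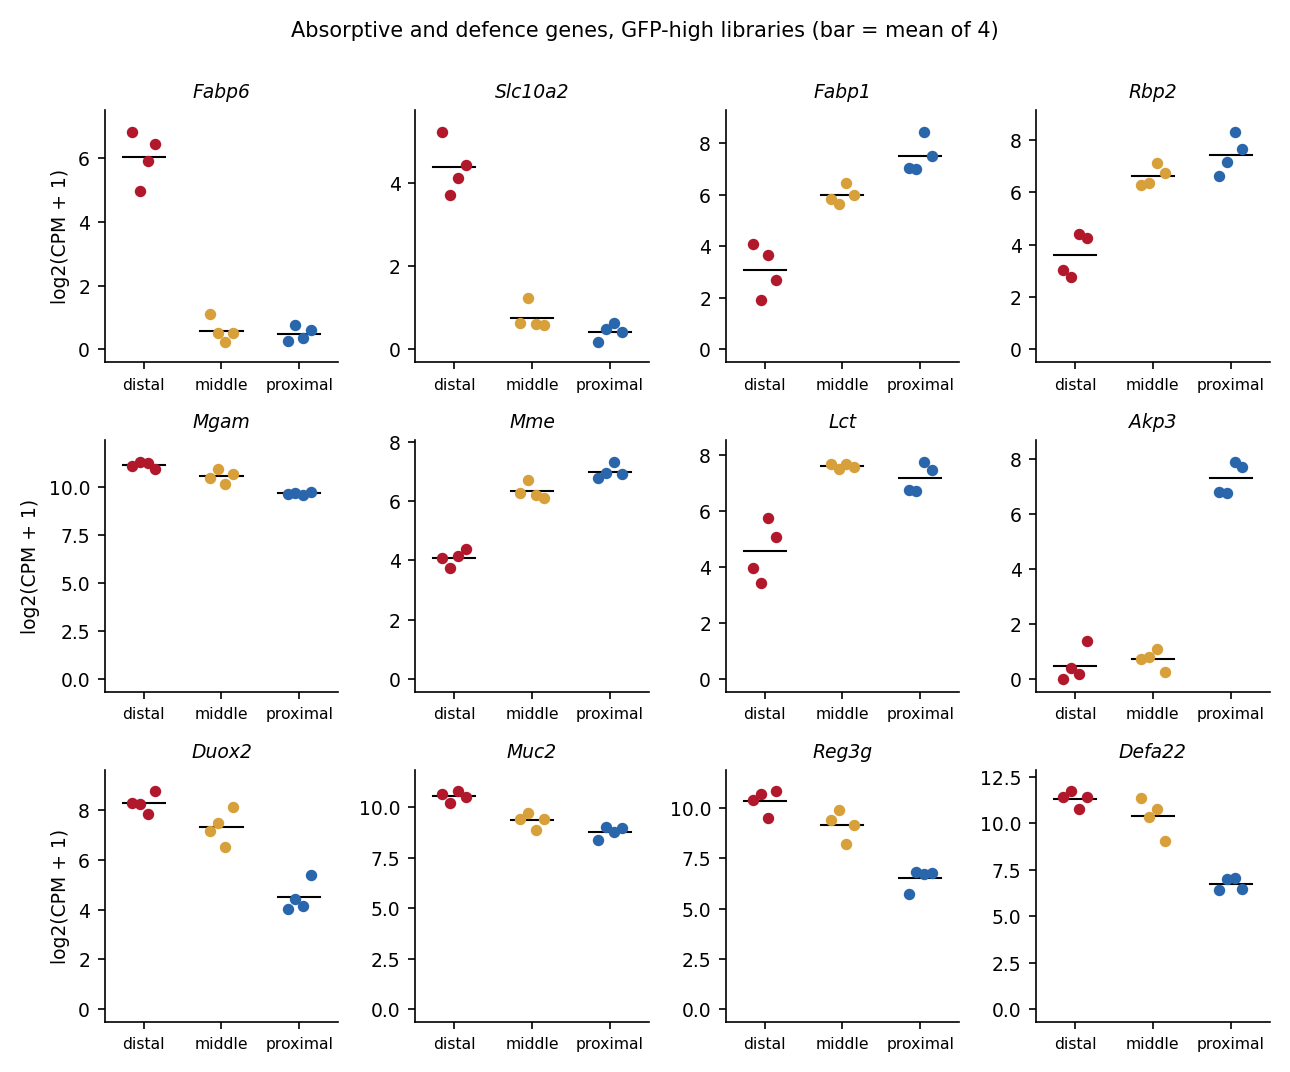
Levels of absorptive and defence genes as log2(CPM + 1) in each GFP-high library of the distal, middle and proximal small intestine, from left to right, with a bar at the mean of 4 libraries. Fabp6 and Slc10a2 are high in distal libraries only of the 3 parts, Akp3 in proximal libraries only, and the middle means lie between the others for Fabp1, Mgam, Duox2 and Muc2.

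Cholesterol synthesis genes moved by small amounts in one direction: 10 of 23 rose. This count fell when single libraries were left out. It was 1, 3 and 6 without distal library 1, 2 and 4, and 2, 4 and 4 without proximal library 1, 2 and 4. For 9 of the 23 every distal library lay above every proximal one, and for 0 below, against 12.5% and 13.2% of all genes. The summed level was 1918.5 to 2111.8 CPM in distal and 1573.7 to 1774.5 CPM in proximal libraries. In GFP-negative cells 13 of the 23 were called higher and 0 lower.

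Of 10 tested genes of the epithelial NADPH oxidases 6 rose. Nox1, the superoxide-generating oxidase of the crypt (chrX:134086421-134137711), had 86.3, 94.1, 62.2 and 91.3 CPM in distal and 2.17, 6.97, 0.532 and 10.4 CPM in proximal libraries (log2 difference 4.06 ± 0.58, adjusted p = 7.14e-07; 4.69 without proximal library 4). The groups were far apart, and the middle libraries, with 21.5, 42.9, 18.0 and 60.8 CPM, lay between them. Duox2, the dual oxidase that releases hydrogen peroxide at the cell surface, had 311, 299, 225 and 427 CPM in distal and 15.3, 20.5, 16.7 and 41.3 CPM in proximal libraries (log2 difference 3.75 ± 0.34, adjusted p = 5.7e-12). Duoxa2, its maturation factor, had 26.6, 23.8, 11.7 and 34.2 CPM in distal and 1.05, 0.885, 0.839 and 1.77 CPM in proximal libraries (log2 difference 4.404 ± 0.49, adjusted p = 1.9e-09). Without the libraries numbered 1, 3 of the 10 genes were called. Npy1r, the neuropeptide Y receptor gene, had 14 counts in the distal and 2 in the proximal libraries together, at most 0.109 CPM in any library, and was not called (adjusted p = 0.345).

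Of 19 mucosal defence genes 5 rose, 1 fell and 13 did not pass. Without proximal library 1, without proximal libraries 2 and 3 or without the libraries numbered 1, 3 rose, and 8 rose in a fit of the 8 libraries alone. Reg3g, a lectin that kills Gram-positive bacteria, had 1360.1, 1681, 719.5 and 1818 CPM in distal and 51.3, 113, 105 and 108 CPM in proximal libraries (log2 difference 3.88 ± 0.69, adjusted p = 4.57e-05). Nos2, the inducible nitric oxide synthase, averaged 92.0 ± 36.3 CPM in distal and 3.78 ± 3.83 CPM in proximal cells (log2 difference 4.604 ± 0.94, adjusted p = 0.000385; 5.54 without proximal library 4). Saa1, a serum amyloid A gene, had 5.65, 2.19, 2.83 and 12.5 CPM in distal libraries and no proximal count, at least 129.8-fold higher (adjusted p = 8.72e-06). Reg1, a lectin gene of pancreas and duodenum, fell, with 2.57, 4.53, 3.33 and 3.72 CPM in distal and 55.4, 47.96, 122 and 64.3 CPM in proximal libraries (log2 difference -4.36 ± 0.65, adjusted p = 1.8e-06). The proximal values of Reg1 were highest in library 3, one of the 2 with pancreatic enzyme transcripts, but exceeded the distal ones in all 4.

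MHC class II genes rose in 8 of 11 cases, but the count fell to 1 without proximal library 3 and to 0 without proximal libraries 2 and 3 or without the libraries numbered 1. H2-Ab1, a class II beta chain, had 706, 592, 328 and 603 CPM in distal and 126, 121, 42.4 and 234 CPM in proximal libraries (log2 difference 2.09 ± 0.52, adjusted p = 0.00441). Cd74, the invariant chain, had 2008, 1789.5, 1153 and 1616 CPM in distal and 399.9, 367, 129 and 656 CPM in proximal libraries (log2 difference 2.08 ± 0.60, adjusted p = 0.0153), and its adjusted p was 0.073 without proximal library 3. That library was the lowest of the proximal ones and distal library 3 the lowest of the distal ones for both genes, and the groups did not overlap. The summed level of the leukocyte genes, given above, overlapped between the groups, while their median log2 difference was -1.35. Ptprc went the other way, with a log2 difference of 1.29, not called. Like H2-Ab1 and Cd74, it was highest in distal library 1. The part of leukocytes in the class II values was not tested.

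Enzymes that decorate mucins and surface glycans changed, 7 of 22 rising and 3 falling (1 fell without distal library 1). Fut2, which adds the fucose that gut bacteria use, had 46.9, 41.0, 12.2 and 53.5 CPM in distal and 1.05, 0.228, 1.29 and 0.833 CPM in proximal libraries (log2 difference 5.50 ± 0.67, adjusted p = 1.74e-08). Distal library 3 was the lowest of its group but still far above every proximal library. The sialyltransferase St6gal1 averaged 6.92 ± 2.16 CPM in distal and 0.755 ± 0.168 CPM in proximal cells (log2 difference 3.20 ± 0.36, adjusted p = 3.27e-09), while another sialyltransferase, St3gal6, fell (log2 difference -1.28 ± 0.14, adjusted p = 1.9e-09). A4gnt and Gcnt3, which build mucin O-glycans, rose by 1.68 ± 0.30 and 0.95 ± 0.20 on the log2 scale (adjusted p = 4.94e-05 and 0.000519).

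Secretory lineage genes were found in the GFP-high libraries of both parts and many rose in the distal ones. Of 21 goblet cell genes 13 rose. Muc2, the gel-forming mucin, had 1587, 1180.3, 1753 and 1443 CPM in distal and 330.1, 512, 435 and 497 CPM in proximal libraries (log2 difference 1.75 ± 0.30, adjusted p = 3.13e-05). Guca2a, guanylin, had 172, 169, 127 and 161 CPM in distal and 19.3, 34.7, 28.1 and 34.4 CPM in proximal libraries (log2 difference 2.43 ± 0.23, adjusted p = 1.21e-11). Both were separate between the groups, and Muc2 in GFP-negative cells averaged 9377 ± 3801 CPM in the distal and 5069 ± 1952 CPM in the proximal part. Agr2, a disulfide isomerase needed for mucin, and Creb3l1, a membrane-bound transcription factor, rose by 1.31 ± 0.22 and 1.23 ± 0.22 (adjusted p = 1.15e-05 and 7.6e-05). Of 26 alpha-defensin genes, the antimicrobial peptides of mouse Paneth cells, 9 rose, and a fit of the 8 libraries alone called 10 higher and 5 lower. Defa22 had 2701, 3378, 1776 and 2736 CPM in distal and 83.5, 129.8, 131 and 87.3 CPM in proximal libraries (log2 difference 4.62 ± 0.56, adjusted p = 2.74e-08), and Defa21 averaged 2941 ± 775 CPM in distal and 137 ± 33.6 CPM in proximal cells (log2 difference 4.42 ± 0.57, adjusted p = 7.6e-08). Defa32, which is outside that list, had 568, 606, 269 and 620.4 CPM in distal and 0.902, 2.33, 1.90 and 2.56 CPM in proximal libraries (log2 difference 8.06 ± 0.69, adjusted p = 2.07e-11). Defa24 was not called, with 1843, 2103, 1212 and 3063 CPM in distal and 4362, 4476, 3826 and 2024 CPM in proximal libraries (log2 difference -0.84 ± 0.49, adjusted p = 0.281; adjusted p = 0.0467 in that fit). These genes are near copies of each other, so the split of reads among them is uncertain. Of 17 other Paneth cell genes 6 rose (3 without distal library 1 or proximal library 3 or 4, and 2 without the libraries numbered 1 or proximal libraries 2 and 3, but 11 in a fit of the 8 libraries alone), such as the stress protein gene Nupr1 (log2 difference 2.11 ± 0.33, adjusted p = 5.2e-06) and the secreted inhibitor Spink4 (log2 difference 0.94 ± 0.23, adjusted p = 0.0035). Lyz1, the Paneth cell lysozyme, was not called, with 8674, 11314, 5763 and 9722 CPM in distal and 4837, 6501, 5346 and 3769.7 CPM in proximal libraries (log2 difference 0.79 ± 0.41, adjusted p = 0.212; adjusted p = 0.0145 in that fit).

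Rare lineages changed in fewer members, and the tuft cell count is near the 6.39% of all genes tested that were called higher. Of 25 tuft cell genes 2 rose: Gnat3, the taste G protein gustducin, had 10.2, 2.88, 3.43 and 1.21 CPM in distal and 0.476, 0.400, 0.420 and 0.283 CPM in proximal libraries (log2 difference 3.49 ± 0.54, adjusted p = 3.74e-06), and Sucnr1, the succinate receptor, had 13.1, 4.35, 3.75 and 2.04 CPM in distal and 0.623, 0.514, 0.392 and 0.268 CPM in proximal libraries (log2 difference 3.69 ± 0.84, adjusted p = 0.0018). Both were highest in distal library 1, and without it their differences were 2.67 and 2.91. Trpm5, a cation channel common to tuft cells, had a log2 difference of -0.40 ± 0.26 (adjusted p = 0.356). Of 26 enteroendocrine genes 4 rose and 3 fell (6 fell without distal library 4, and 1 without proximal libraries 2 and 3 or without the libraries numbered 1). The hormones divided by part: Gcg, the proglucagon gene, had 22.1, 51.7, 15.9 and 21.1 CPM in distal and 4.51, 9.49, 4.64 and 5.22 CPM in proximal libraries (log2 difference 2.21 ± 0.50, adjusted p = 0.00135), and Pyy, peptide YY, had 1.26, 3.22, 0.905 and 1.58 CPM in distal and 0.131, 0, 0.0560 and 0.0595 CPM in proximal libraries (log2 difference 4.82 ± 0.74, adjusted p = 3.05e-06; 5.45 without proximal library 1). Gip, the glucose-dependent insulinotropic peptide of the duodenum, had 0, 0.904, 2.14 and 5.39 CPM in distal and 7.48, 18.2, 9.33 and 10.9 CPM in proximal libraries (log2 difference -2.45 ± 0.64, adjusted p = 0.00772; -3.48 without distal library 4, adjusted p = 0.0792 without proximal libraries 2 and 3 and 0.0553 in a fit of the 8 libraries alone). Ghrl, ghrelin, averaged 0.326 ± 0.215 CPM in distal and 1.34 ± 0.357 CPM in proximal cells (log2 difference -2.04 ± 0.51, adjusted p = 0.00497), a call lost without the libraries numbered 1 (0.0725). Pcsk1, the prohormone convertase, rose by 0.97 ± 0.20 (adjusted p = 0.000452).

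Further genes with large differences lay outside these groups. Slc5a8, a sodium-coupled monocarboxylate carrier, had 59.2, 28.9, 22.6 and 30.5 CPM in distal and 0.164, 0.742, 0.588 and 0.238 CPM in proximal libraries (log2 difference 6.32 ± 0.54, adjusted p = 1.06e-12; 5.67 without the libraries numbered 1 and 7.45 without proximal libraries 2 and 3). Plb1, a brush border phospholipase, and Tmigd1, an adhesion molecule of the epithelium, averaged 55.0 ± 24.7 and 24.1 ± 12.4 CPM in distal cells and 0.349 ± 0.103 and 0.266 ± 0.102 CPM in proximal cells. The middle part was near the distal level for Plb1, at 37.7 ± 9.80 CPM, and below it for Tmigd1, at 3.09 ± 0.845 CPM. Cd177, a glycoprotein best known from neutrophils, had 274, 248, 149 and 256 CPM in distal and 4.97, 7.28, 1.65 and 9.07 CPM in proximal libraries (log2 difference 5.33 ± 0.46, adjusted p = 1.06e-12). Bex4 rose by 5.95 ± 0.53 and the adhesion molecule Ceacam10 by 5.38 ± 0.67, which was 6.11 without proximal library 4. Among the genes that fell, Cyp2e1, an ethanol-oxidising cytochrome P450, had 0.205, 0.653, 1.88 and 0.626 CPM in distal and 54.1, 46.5, 42.0 and 33.7 CPM in proximal libraries (log2 difference -5.70 ± 0.68, adjusted p = 3.83e-08; -6.47 without distal library 3). Wwtr1, the Hippo pathway coactivator TAZ, had 0.411, 0.477, 0.574 and 0.681 CPM in distal and 12.1, 10.8, 13.8 and 10.5 CPM in proximal libraries (log2 difference -4.46 ± 0.55, adjusted p = 2.75e-08). Pbld1 fell by 3.70 (adjusted p = 3.43e-10). Of 12 tested genes of pancreas, stomach and liver 9 fell (5 without distal library 1, 3 without proximal libraries 2 and 3 or in a fit of the 8 libraries alone), with a summed level of 9.79 to 11.8 CPM in distal and 23.8 to 179.96 CPM in proximal libraries. Pnlip, pancreatic lipase, had no distal count and 0.131, 28.9, 15.6 and 0.208 CPM in proximal libraries 1 to 4, and its adjusted p of 0.0285 was 0.572 without proximal libraries 2 and 3. Pgc, the gastric pepsinogen C gene, averaged 0.458 ± 0.203 CPM in distal and 7.29 ± 3.03 CPM in proximal cells (log2 difference -3.99 ± 1.03, adjusted p = 0.00614; adjusted p = 0.057 without the libraries numbered 1).

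The same comparison in GFP-negative cells called 3636 genes (15.6%), 1558 higher (6.67%) and 2078 lower (8.9%) in distal cells. Of these, 1211 were called in the same direction in GFP-high cells, which is 43.9% of the GFP-high and 33.3% of the GFP-negative calls, and 30 were called in opposite directions. A test of the difference between the 2 comparisons, an interaction with fraction, called 826 genes (3.54%), 594 (2.54%) where the GFP-high difference was the more positive and 232 (0.993%) where it was the more negative. The regional factors Gata4, Onecut2 and Pdx1 were not among them: in GFP-negative cells the log2 difference was -1.79 ± 0.41 for Gata4, -7.80 ± 0.65 for Onecut2 and -7.77 ± 0.69 for Pdx1, and no interaction of these 3 genes was called (adjusted p between 0.186 and 0.59). Slc27a2, a very long chain acyl-CoA synthetase, averaged 215 ± 9.20 CPM in distal and 120.3 ± 4.92 CPM in proximal GFP-high cells, a rise, but 39.7 ± 18.2 CPM in distal and 201 ± 18.5 CPM in proximal GFP-negative cells, a fall (interaction 3.18 ± 0.25, adjusted p = 2.98e-13). Casp6, an executioner caspase, averaged 38.1 ± 5.52 CPM in distal and 72.2 ± 2.43 CPM in proximal GFP-high cells, and 32.3 ± 7.07 CPM in distal and 282 ± 44.2 CPM in proximal GFP-negative cells, a fall in both fractions and a deeper one in GFP-negative cells (interaction 2.20 ± 0.19, adjusted p = 3.89e-12).

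Prdm16, a zinc finger regulator, fell in both fractions and more so in GFP-negative cells, with 19.4 ± 1.35 CPM in distal and 73.9 ± 8.11 CPM in proximal GFP-high cells and 4.09 ± 0.932 CPM in distal and 63.8 ± 6.36 CPM in proximal GFP-negative cells (interaction 2.03 ± 0.21, adjusted p = 1.13e-09). Gstm1, a glutathione transferase, and Rhobtb3 had interactions of 3.10 ± 0.26 and 3.67 ± 0.33 (adjusted p = 2.48e-12 and 3.06e-11). Both fell in GFP-negative cells, to 21.9 ± 6.37 and 1.19 ± 0.547 CPM in the distal part, against 228 ± 70.6 and 27.3 ± 8.14 CPM in the proximal part. Abcb1a rose in GFP-high cells, while its GFP-negative difference was 0.03 ± 0.16 (adjusted p = 0.955), and the interaction was 1.80 ± 0.23 (adjusted p = 2.17e-07). In the other direction, Ddah1, which degrades methylated arginines, rose in both fractions and more in GFP-negative cells, with 69.6 ± 20.4 CPM in the distal and 1.83 ± 0.432 CPM in the proximal part there (interaction -3.10 ± 0.32, adjusted p = 2.11e-09). The kinase Map3k6 rose in both fractions as well, with an interaction of -2.56 ± 0.31 (adjusted p = 1.1e-07). The magnesium channel Trpm6 and the hexokinase Hk2 rose in GFP-negative cells but were not called in GFP-high cells, with interactions of -4.51 ± 0.55 and -1.75 ± 0.23 (adjusted p = 1.1e-07 and 4.72e-07). Rdh16 fell in GFP-high cells and was at 7.76 ± 1.44 CPM in distal and 6.70 ± 1.81 CPM in proximal GFP-negative cells (interaction -3.11 ± 0.43, adjusted p = 1.82e-06). Leaving out single libraries gave between 558 and 1200 interaction calls in all, and the 232 on the negative side became 143 without distal GFP-high library 1, 144 without distal GFP-high library 2, 153 without proximal and 364 without distal GFP-negative library 4.

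**Figure D5:**
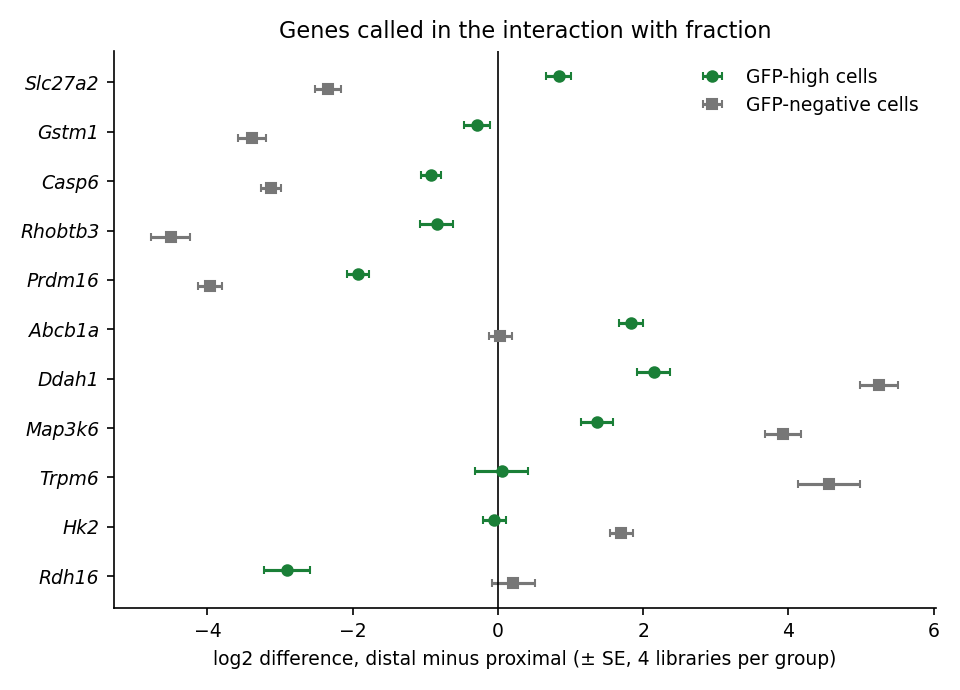
Log2 differences of distal minus proximal small intestine, with standard errors, plotted by GFP fraction for 11 genes called in the interaction with fraction. Slc27a2 lies on opposite sides of 0 in the 2 fractions, Abcb1a and Rdh16 differ in GFP-high cells and lie near 0 in GFP-negative cells, and Trpm6 and Hk2 do the reverse.

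Between distal and proximal colon, GFP-high cells gave 1821 calls (7.8%), 874 higher (3.74%) and 947 lower (4.05%) in the distal part. Of the small intestinal calls 253 (9.17%, and 13.9% of the colonic calls) had the same direction in the colon and 262 the opposite one, and the interaction with organ called 1992 genes (8.53%), 1207 positive (5.17%) and 785 negative (3.36%). Car8, a carbonic anhydrase-related protein gene, had a higher level distally in the small intestine, 141 ± 32.2 CPM in distal and 34.9 ± 5.68 CPM in proximal cells, and proximally in the colon, 26.7 ± 5.63 CPM in distal and 226 ± 69.5 CPM in proximal cells (interaction 5.10 ± 0.33, adjusted p = 7.25e-17). Fzd3 rose distally in the small intestine but averaged 5.97 ± 0.994 CPM in distal and 19.9 ± 4.25 CPM in proximal colon cells (interaction 6.355; 5.73 without the libraries numbered 1). Mboat1, a phospholipid acyltransferase gene, averaged 23.2 ± 3.12 CPM in distal and 3.06 ± 0.282 CPM in proximal small intestinal cells, and 92.0 ± 23.9 CPM in distal and 108 ± 19.1 CPM in proximal colon cells, where it was not called (interaction 3.15 ± 0.22). H2-T3, a nonclassical MHC class I gene, was called in the colon comparison but not in the small intestinal one, with 2.84 ± 0.383 CPM in distal and 38.8 ± 4.34 CPM in proximal colon cells (interaction 3.47 ± 0.23).

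The genes named for a negative interaction fell or were not called in the distal small intestine and rose in the distal colon. Adh1 averaged 1082 ± 216 CPM in distal and 195 ± 68.4 CPM in proximal colon cells, against the fall along the small intestine (interaction -4.86 ± 0.34, adjusted p = 5.1e-16). St3gal6 averaged 291 ± 38.8 CPM in distal and 54.8 ± 10.1 CPM in proximal colon cells (interaction -3.69 ± 0.21), and B4galnt3, another glycosyltransferase, 189.9 ± 34.0 CPM in distal and 14.9 ± 2.84 CPM in proximal colon cells (interaction -4.60 ± 0.27). Ttr, transthyretin, had an interaction of -4.70 ± 0.33, with 5.29 ± 1.09 CPM in distal and 17.9 ± 3.18 CPM in proximal small intestinal cells. Nox1 had 296 ± 55.7 CPM in distal and 133 ± 32.3 CPM in proximal colon cells, where it was not called (adjusted p = 0.195), and its interaction was 2.91 ± 0.74 (adjusted p = 0.00565). Hoxb9 was present in both colon parts, at 76.8 ± 7.19 CPM in distal and 119.8 ± 9.11 CPM in proximal cells, and Gata4 averaged at most 0.492 CPM in either.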

How the data were processed

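PolyA RNA of GFP-sorted cells was sequenced, and reads were aligned with STAR to mm10 and counted per gene with featureCounts of Subread, per the submitters' processing notes. The values used are the raw counts the authors deposited for 55357 genes in 60 libraries; no row lacks a gene. Library kit, strand setting, versions and annotation release are not given in the sources used here. Genes were filtered with filterByExpr (23360 kept, 99.97% or more of each library's counts), scaled by TMM and tested with edgeR 4.0.16 (quasi-likelihood F test, limma 3.58.1, R 4.3.3) in one fit of all 60 libraries and 15 groups, with Benjamini-Hochberg adjustment and a threshold of 0.05. Standard errors were derived from each log2 difference and its F. CPM use the TMM-scaled library sizes. All totals lay between 55411864 and 113917959 counts. The fitting steps were tested on simulated data.

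The members and gene lists were chosen with earlier results of these data known. Named genes were Lgr5, Nox1 and Npy1r, up to 15 per direction with the largest called difference, at least 10 CPM and no overlap, up to 8 per list by p and up to 8 per direction of each interaction. The list members Olfm4, Ascl2, Smoc2, Axin2, Lct, Defa24, Trpm5 and Fabp2 were instead chosen after their values were seen. Some genes the rule names are not reported here. For a gene without counts in a whole group, a bound was computed with 3 counts in each of its libraries.

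The batch in the labels equals the replicate number in 60 of 60 libraries, so equal numbers mark a shared batch. Deviations from group means correlated at 0.184, 0.324, 0.351 and 0.234 between distal and proximal libraries of equal number over 12843 genes, and at -0.229 to 0.0741 otherwise. Alternatives were DESeq2 1.42.0 (its size factors and its Wald test), no filter, the newer quasi-likelihood form, a replicate block, a separate fit of the groups compared, an added 2-fold minimum, and leaving out libraries. RefSeq promoters and gene positions are on GRCm38.p6, the patch release of the mm10 assembly.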

Additional observations from a re-analysis of the deposited data

Results flagged for a closer look

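In 12 of 239 sets of 4 libraries checked for 137 genes, the highest or lowest library lay apart from the rest by more than Dixon's 95% critical value; chance gives about 1 in 20. Lgr5 had 405 CPM in proximal library 1, against 280 to 283 CPM in the others. In the same library Oat stood apart with 2990 CPM (others 2200 to 2210), Reg3g with 51.3 CPM (others 105 to 113) and Agr2 with 94.2 CPM (others 136 to 140). Distal library 3 stood apart for Abcc4 with 21.5 CPM, A4gnt with 7.73 CPM, Defa20 with 337 CPM and Defa32 with 269 CPM, above the others for Abcc4 and below them for the rest. Slc30a10 had 0.411 CPM in distal library 1, against 1.88 to 2.07 CPM. Among proximal libraries, Defa20 had 58 CPM in library 4 (others 26.6 to 31.1), Gcg 9.49 CPM in library 2 (others 4.51 to 5.22) and Ghrl 0.811 CPM in library 3 (others 1.46 to 1.56).

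The distal minus proximal difference changed with the GFP fraction, by the interaction test, for 11 named genes. On the log2 scale, GFP-high minus GFP-negative, the change was 3.67 for Rhobtb3, 3.18 for Slc27a2, 3.10 for Gstm1, 2.20 for Casp6, 2.03 for Prdm16 and 1.80 for Abcb1a. It was -4.51 for Trpm6, -3.11 for Rdh16, -3.10 for Ddah1, -2.56 for Map3k6 and -1.75 for Hk2. Between organs, small intestine minus colon, it was 6.355 for Fzd3, 5.10 for Car8, 3.47 for H2-T3 and 3.15 for Mboat1, and -4.86 for Adh1, -4.70 for Ttr, -4.60 for B4galnt3 and -3.69 for St3gal6.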

How the results depend on the processing

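Of 124 called genes named for the distal against proximal comparison, 124 kept their sign and 111 kept their call under every alternative. These genes were mostly named for a large difference or a small p in this comparison, so they do not stand for all calls. Of all 2759 calls, 42.2% were shared without the libraries numbered 1. The share was 43.2% without proximal libraries 2 and 3 and 56.7% without distal library 1. The replicate block gave 3114 calls, of which 2736 were shared (99.2% of the 2759), 1003 for the interaction with fraction and 2166 for the interaction with organ; it lost no call of a named gene, added that of Nusap1 and, beyond the fatty acid oxidation and mitosis counts given in the report, is not quoted for single lists. A fit of only the groups compared called 4996 genes (2572 higher, 2424 lower). Leaving out the libraries numbered 1 left 1193 (699 higher, 494 lower), and leaving out proximal libraries 2 and 3, chosen after seeing the data, left 1203 (636 higher, 567 lower). Adding a 2-fold minimum left 1372 (747 higher, 625 lower). Leaving out single libraries gave 1599 to 2941 calls (979 to 1560 higher, 620 to 1381 lower), with the lowest counts in all 3 cases without distal library 1. The interaction with fraction called 531 genes (351 positive) without a filter, 1291 (433 negative) with the DESeq2 Wald test, 235 (163 positive, 72 negative) in a fit of only the groups compared, 290 (188 positive, 102 negative) without the libraries numbered 1 and 453 (280 positive) with a 2-fold minimum. Leaving out single libraries gave 558 to 1200 such calls (405 to 836 positive, 143 to 364 negative). The interaction with organ called 1266 genes (798 positive, 468 negative) without the libraries numbered 1, and 1651 to 2060 without single libraries. The cause of each shift was not tested. The log2 difference of Ascl2, -0.11 with adjusted p = 0.9, turned to 0.10 without the libraries numbered 1, and ranged from -0.29 to 0.048 without single libraries (0.048 without proximal library 1). Genes with few counts on one side, such as Hoxb8 with 6 proximal and Hoxa7 with 4 distal counts, have imprecise differences whatever the total.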
